A study of Mus musculus with 6 samples.

Results

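The junction genes of the intestinal epithelium were compared between irradiated mice given VND3207 and irradiated mice given the vehicle. The set holds 33 genes, of the 36163 gene names on the array, and its members were chosen by name: 12 claudins, 7 other tight junction genes, 5 genes of the adherens junction and cell adhesion, 6 desmosome genes and 3 gap junction genes. The tissue was jejunum from 6 male mice of the C57BL/6J strain, and each mouse had its own one-colour Agilent array with 60-base probes. The 3 VND3207 mice received 100 mg/kg of this compound, which the labels give only by its code name, into the stomach, and the 3 vehicle mice received an equal volume of the vehicle. All 6 mice were exposed to 9 Gy of radiation 0.5 h afterwards and their jejunum was collected 6 h after the exposure. Since both groups were irradiated, the comparison asks what the compound changed in irradiated tissue, and the effect of radiation has no measure here.

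Epithelial cells of the gut are held together by a belt of junctions near their apical side. Claudins, occludin and the tricellulin family are membrane proteins of the tight junction, which sets what passes between the cells, and the zonula occludens proteins and cingulin tie them to actin. Below it, E-cadherin and the catenins form the adherens junction, desmosomes anchor keratin filaments, and connexins form the channels of gap junctions.

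Values are log2 processed signals minus the 75th percentile of the same array, so 0 is the level of that percentile, and differences are VND3207 minus vehicle on the log2 scale. The level of a probe depends on its sequence, and levels were therefore compared between mice and not between genes. All vehicle arrays shared slide 1 and scan 1 and all VND3207 arrays shared slide 2 and scan 2, so for every difference given here batch and group cannot be told apart. The share of probe spots above background was 66.7% to 70.0% for vehicle and 58.8% to 61.4% for VND3207. Of 36095 tested probes, 334 were higher and 5258 lower with VND3207, and higher calls made up 5.97% of the calls, against 20.7% after quantile normalization and 31.7% after each array was corrected for smooth trends with probe brightness, GC content and position on the array (the trend correction). Precision is limited by the number of arrays.

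Of the 33 junction genes, 29 had a tested probe, and 0 of these passed the threshold with VND3207 in either direction (limma, Benjamini-Hochberg adjusted p under 0.05 over all tested probes). The smallest adjusted p was 0.255, for the plakophilin gene Pkp3, and 0 of 29 genes had an unadjusted p under 0.05. Over all tested probes 15.5% were called, but 24 of the 29 genes were brighter than the 75th percentile of the arrays, and among probes that bright 5.23% were called. The difference was above 0 for 17 genes and below 0 for 12, from -0.29 for Cldn23 to 0.44 for Gja1, with a median of 0.0346 against -0.0645 over all tested probes and 0.0135 over the bright ones. This median turned to -0.0506 without VND3207 replicate 2, to -0.0362 without vehicle replicate 3 and to -0.0015 after the trend correction.

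How small a difference these arrays allow is given by the 95% confidence intervals of limma. The interval lay within 1.5-fold in either direction for 22 of the 29 genes and within 2-fold for 26. The 3 genes whose interval reached past 2-fold were Cldn4, Cldn10 and Gja1. The intervals cover the spread between mice under this processing only. After the trend correction Jup, at 0.59, and Cldn10, at 1.42, lay outside their intervals. The standard error ran from 0.09 for Ctnnd1 to 0.54 for Cldn4, with a median of 0.13 (n = 3 and 3). An adjusted p above the threshold does not show that a level was the same in both groups.

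**Figure D1:**
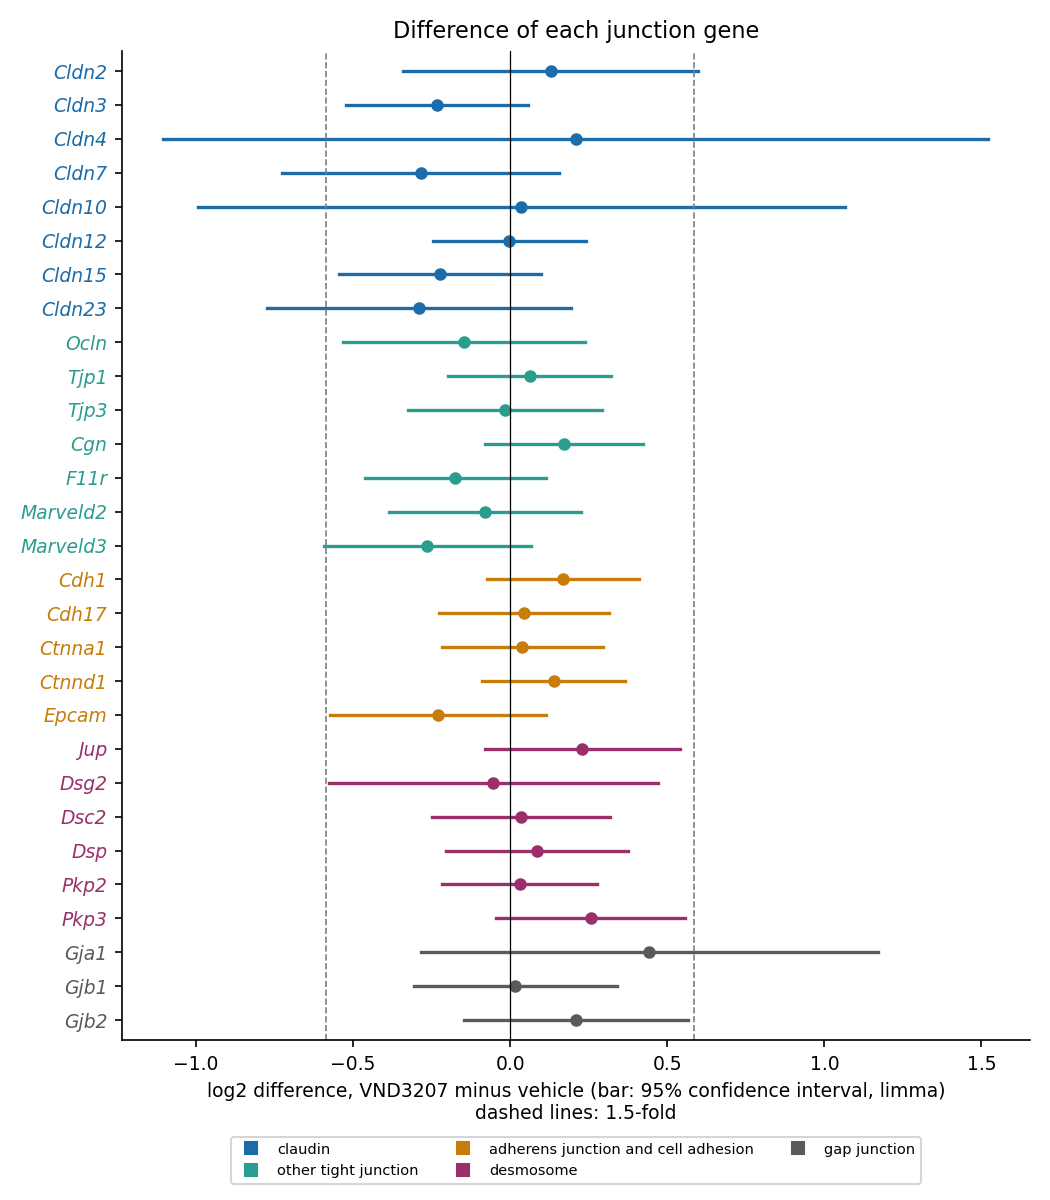
The log2 difference of each tested junction gene, VND3207 minus vehicle, with its 95% confidence interval from limma (n = 3 and 3), coloured by class, and dashed lines at 1.5-fold. All 29 intervals cross 0, and those of Cldn4, Cldn10 and Gja1 are the widest.

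In 7 of the 29 genes the groups did not overlap, with Cgn, Cdh1, Ctnnd1 and Pkp3 above and Cldn3, Cldn7 and Marveld3 below the vehicle mice. The values of the groups were apart for 34.3% of all tested probes and for 28.0% of the bright ones, so the count among the junction genes was near the background. Across the set, vehicle replicate 1 had the highest value of its group for 21 of the 29 genes, and VND3207 replicate 2 for 18 of 29. Centred on each gene's own mean, the median over the 29 genes was 0.09, -0.03 and -0.07 in vehicle replicates 1, 2 and 3 and -0.03, 0.10 and -0.05 in VND3207 replicates 1, 2 and 3. The median deviations therefore overlapped between the groups, with 1 higher mouse in each.

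**Figure D2:**
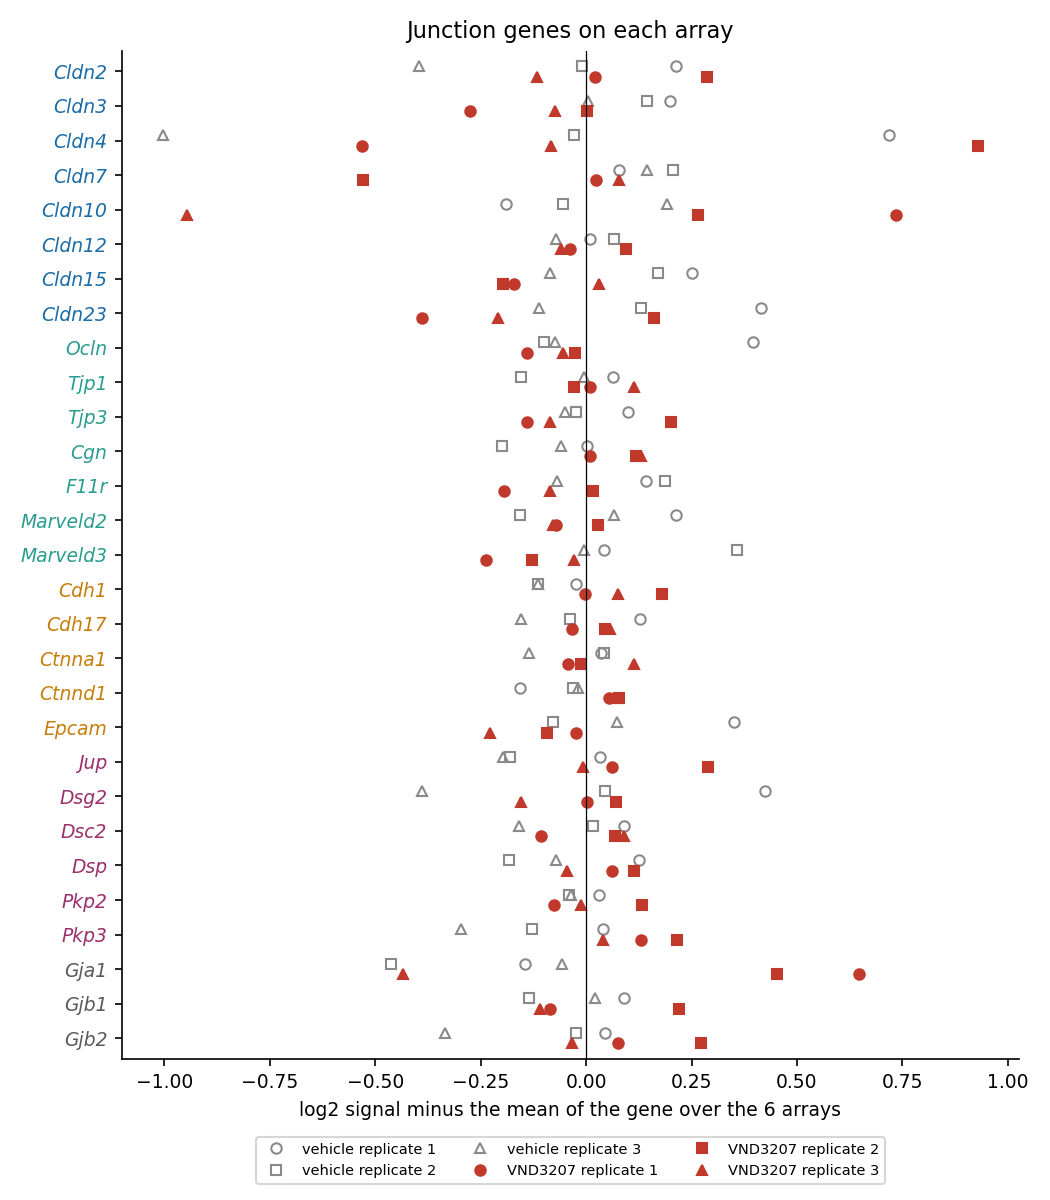
The log2 signal of each tested junction gene on each of the 6 arrays, centred on that gene's mean, with vehicle replicates as open grey and VND3207 replicates as filled red symbols. The symbols of the groups are apart for 7 of 29 genes, and Cldn4, Cldn10 and Gja1 spread the most within their groups.

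Among the claudins, the proteins that give the tight junction its selectivity, 0 of 8 tested members passed the threshold, with 3 above 0 and 5 below and a median difference of -0.11. Cldn3, a sealing claudin of the gut, had values of 6.33, 6.28 and 6.14 in the vehicle mice and 5.85, 6.13 and 6.06 in the VND3207 mice. The highest VND3207 value lay just under the lowest vehicle value. Its difference was -0.23 (SE 0.12, limma adjusted p = 0.285), and it was -0.04 after the trend correction.

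Cldn7, which encodes a claudin of the lateral membrane, had values of 7.43, 7.56 and 7.49 with vehicle and 7.37, 6.82 and 7.43 with VND3207. VND3207 replicate 2 stood below the other 5 arrays, and the groups were apart by less than 0.01. The difference was -0.28 (SE 0.18, limma adjusted p = 0.389) and -0.01 with quantile normalization. Cldn23 had the lowest difference of the set, with -0.05, -0.33 and -0.58 in the vehicle mice and -0.85, -0.30 and -0.67 in the VND3207 mice. Here the groups overlapped, since VND3207 replicate 2 was above vehicle replicates 2 and 3. Its difference was -0.29 (SE 0.20, limma adjusted p = 0.425).

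The channel-forming claudins of the gut, Cldn2 and Cldn15, which let cations pass between the cells, were at 0.13 (SE 0.19) and -0.22 (SE 0.13), with limma adjusted p-values of 0.736 and 0.352. A dimmer probe of Cldn2 was at -0.26 (SE 0.22, limma adjusted p = 0.527), so the 2 probes of this gene differed in sign. Cldn12 was at -0.0023 (SE 0.10), and its interval of -0.25 to 0.24 was the narrowest of the claudins.

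Cldn4, a sealing claudin, was the most variable of the junction genes between mice of the same group. Its brighter probe was at 0.26, -0.48 and -1.46 in vehicle replicates 1, 2 and 3 and at -0.99, 0.47 and -0.54 in VND3207 replicates 1, 2 and 3. The groups overlapped over nearly their whole range. The pooled SD within groups was 0.81, higher than for 97.1% of all tested probes, and the difference of 0.21 had an interval of -1.11 to 1.52 (limma adjusted p = 0.852). The other probe of Cldn4 was at -0.19, -0.77 and -1.44 with vehicle and -1.44, -0.40 and -1.43 with VND3207, a difference of -0.29 (SE 0.41). The brighter Cldn4 probe lies on chromosome 5 from 135421347 to 135421406 on the mm9 build of the files. On both probes the order of the vehicle mice was the same, with replicate 1 highest, and VND3207 replicate 2 was the highest of its group.

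Cldn10, which encodes a claudin with anion- and cation-selective isoforms, was the next most variable, with a within-group SD of 0.63. It read -5.07, -4.94 and -4.69 with vehicle and -4.15, -4.62 and -5.83 with VND3207. VND3207 replicates 1 and 2 were above all vehicle mice, and replicate 3 was below them. It was well above background on 3 vehicle and 2 VND3207 arrays. Its difference was 0.04 (SE 0.42, limma adjusted p = 0.970), with 0.52 (adjusted p = 0.174) without VND3207 replicate 3 and 1.42 (adjusted p = 0.142) after the trend correction.

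The remaining 4 claudins were too dim to be tested, since they were not well above background on at least 3 arrays. Cldn1 and Cldn18, the latter known as a claudin of stomach and lung, were not well above background on any array. Cldn8 was well above background on 1 vehicle and 1 VND3207 array. Cldn6, a claudin of embryonic epithelia, passed on 2 vehicle arrays and on 0 VND3207 arrays. It read -4.87, -4.54 and -5.06 with vehicle and -7.07, -6.96 and -6.81 with VND3207, all 3 of the latter below the vehicle values. Against the lowest signal called well above background on each VND3207 array, the vehicle mean of Cldn6 was 1.14-fold higher. That mean takes in all 3 vehicle arrays, of which 2 were well above background. The difference of Cldn6 was -2.13. Tested probes of about that brightness, at a mean of -5.75, had a median difference of -1.84 and a 10th to 90th percentile of -2.44 to -0.99. These probes had passed the filter that Cldn6 failed, and probes this dim can pass it through either group alone. They are therefore no background for Cldn6. When probes of any brightness were tested, 11.1% of them were called, Cldn6 (limma adjusted p = 0.00386) and Cldn18 (adjusted p = 0.0365) among them. The Cldn6 values with VND3207 and all Cldn18 values were not well above background, so these calls give no size beyond the 1.14-fold for Cldn6.

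The other 7 tight junction genes were all tested, and 0 passed, with 2 above 0, 5 below and a median of -0.08. Marveld3, which encodes a membrane protein of the occludin and tricellulin family, had values of 3.21, 3.53 and 3.17 with vehicle and 2.94, 3.04 and 3.15 with VND3207. Every VND3207 value was below every vehicle value on this probe. Its difference was -0.26 (SE 0.14, limma adjusted p = 0.286), while its second probe overlapped at -0.08 (SE 0.14).

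Cgn encodes cingulin, which links the tight junction to the actin belt, and read 4.04, 3.84 and 3.98 with vehicle and 4.04, 4.15 and 4.16 with VND3207. VND3207 replicate 1 was above vehicle replicate 1 by less than 0.01, and the others were further apart. The difference was 0.17 (SE 0.10, limma adjusted p = 0.363).

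F11r encodes the junctional adhesion molecule JAM-A, and its values were 5.55, 5.596 and 5.34 with vehicle and 5.21, 5.42 and 5.32 with VND3207. Here VND3207 replicate 2 was above vehicle replicate 3, and the difference was -0.17 (SE 0.12, limma adjusted p = 0.421). Occludin, the product of Ocln, was at -0.15 (SE 0.16), with -0.05 on its second probe, and Marveld2, the gene of tricellulin, which seals the corners where 3 cells meet, was at -0.08 (SE 0.13). In both genes vehicle replicate 1 was the highest of all arrays, and without it their differences were 0.01 and 0.0047. Tjp1 and Tjp3 encode the scaffold proteins ZO-1 and ZO-3, and they were at 0.06 (SE 0.11) and -0.02 (SE 0.13). The adjusted p of these 4 genes ran from 0.628 to 0.954 (limma).

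In the adherens junction and cell adhesion class, 0 of 5 genes passed, with 4 above 0 and a median of 0.045. Cdh1 encodes E-cadherin, the adhesion receptor of epithelial cells, and read 4.89, 4.80 and 4.80 with vehicle and 4.91, 5.09 and 4.99 with VND3207. All VND3207 values were above the vehicle values, the nearest pair by 0.02. The difference was 0.17 (SE 0.10, limma adjusted p = 0.356), and over the settings tried it stayed between 0.12 and 0.22.

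Ctnnd1 encodes p120 catenin, which holds cadherins at the membrane. It was at 5.33, 5.45 and 5.47 with vehicle and at 5.54, 5.56 and 5.56 with VND3207. The groups were apart, and the VND3207 mice lay within an SD of 0.013, so that the difference of 0.14 had the smallest error of the set (SE 0.09, limma adjusted p = 0.417). Epcam encodes an adhesion molecule of epithelial cells that binds claudin-7. It read 5.81, 5.38 and 5.53 with vehicle and 5.44, 5.37 and 5.23 with VND3207, with VND3207 replicate 1 above vehicle replicate 2. Its difference was -0.23 (SE 0.14, limma adjusted p = 0.373). Cdh17, the gene of the liver-intestine cadherin, and Ctnna1, the gene of alpha-catenin, which joins the complex to actin, were at 0.045 (SE 0.11) and 0.038 (SE 0.11), with intervals inside 1.5-fold.

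Of the 6 desmosome genes 5 were above 0 and 0 passed, and the median difference was 0.06. Pkp3 encodes plakophilin-3, a plaque protein of desmosomes, and was at 3.57, 3.40 and 3.23 with vehicle and 3.66, 3.74 and 3.57 with VND3207. The lowest VND3207 value and the highest vehicle value differed by less than 0.01. Its difference was 0.26 (SE 0.12, limma adjusted p = 0.255), with 0.17 to 0.34 over the settings tried, none of which brought it past the threshold. The Pkp3 probe lies on chromosome 7 from 148276140 to 148276199 (mm9).

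Jup encodes plakoglobin, a catenin shared by desmosomes and adherens junctions. It had values of -1.89, -2.10 and -2.12 with vehicle and -1.86, -1.63 and -1.93 with VND3207. The groups overlapped through vehicle replicate 1, which was above VND3207 replicate 3. Its difference was 0.23 (SE 0.13, limma adjusted p = 0.324). After the trend correction, a setting under which 7.29% of probes were called, Jup was called higher at 0.59 (adjusted p = 0.0288), and it was at 0.39 (adjusted p = 0.0998) with quantile normalization. The Jup probe lies on chromosome 11 from 100238038 to 100238097 (mm9).

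The cadherins of the desmosome, encoded by Dsg2 and Dsc2, were at -0.05 (SE 0.22) and 0.03 (SE 0.12). A second Dsg2 probe was at 0.23 (SE 0.20), so the probes of this gene differed in sign, and 1 more probe was not well above background on any array. Dsp encodes desmoplakin, which ties the plaque to keratin, and was at 0.09 (SE 0.12), with -0.004 on a dimmer probe. Pkp2, the gene of plakophilin-2, was at 0.03 (SE 0.10). The limma adjusted p of these 4 genes lay between 0.713 and 0.907.

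All 3 gap junction genes were above 0, with a median of 0.21, and 0 passed. Gja1 encodes gap junction protein alpha 1, the most widespread connexin, found in smooth muscle and connective tissue cells as well as in epithelia. Its values were -2.39, -2.70 and -2.30 with vehicle and -1.59, -1.79 and -2.68 with VND3207. VND3207 replicates 1 and 2 were above all vehicle mice, and replicate 3 was near the lowest of them. The difference of 0.44 (SE 0.30, limma adjusted p = 0.419) had an interval of -0.28 to 1.17. Without VND3207 replicate 3, when 14.8% of probes were called, Gja1 was called higher at 0.77 (SE 0.17, adjusted p = 0.0384). The Gja1 probe lies on chromosome 10 from 56109814 to 56109873 (mm9).

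VND3207 replicate 3 stood apart in smooth muscle genes and in mesothelial genes. The median over 4 mesothelial markers, each centred on its own mean, was -2.57 there and from -0.34 to 1.23 in the other mice. The median over 7 smooth muscle markers, each centred on its own mean log2 signal, was 0.21, 0.17 and 0.59 in vehicle replicates 1, 2 and 3, and 0.45, 0.32 and -1.84 in VND3207 replicates 1, 2 and 3. Their summed linear signal, relative to the 75th percentile, ran from 215 to 273 with vehicle and from 58.8 to 263 with VND3207. All 7 markers were well above background on every array and 0 of 7 passed the threshold, with a median difference of -0.68 that was 0.07 without VND3207 replicate 3. Without this replicate the 6 fibroblast markers had a median of 0.28 and 1 called higher, Pdgfra at 0.67 (limma adjusted p = 0.0488), against 0.58 (adjusted p = 0.0521) with it. The part of these markers in the Gja1 values was not tested.

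**Figure D3:**
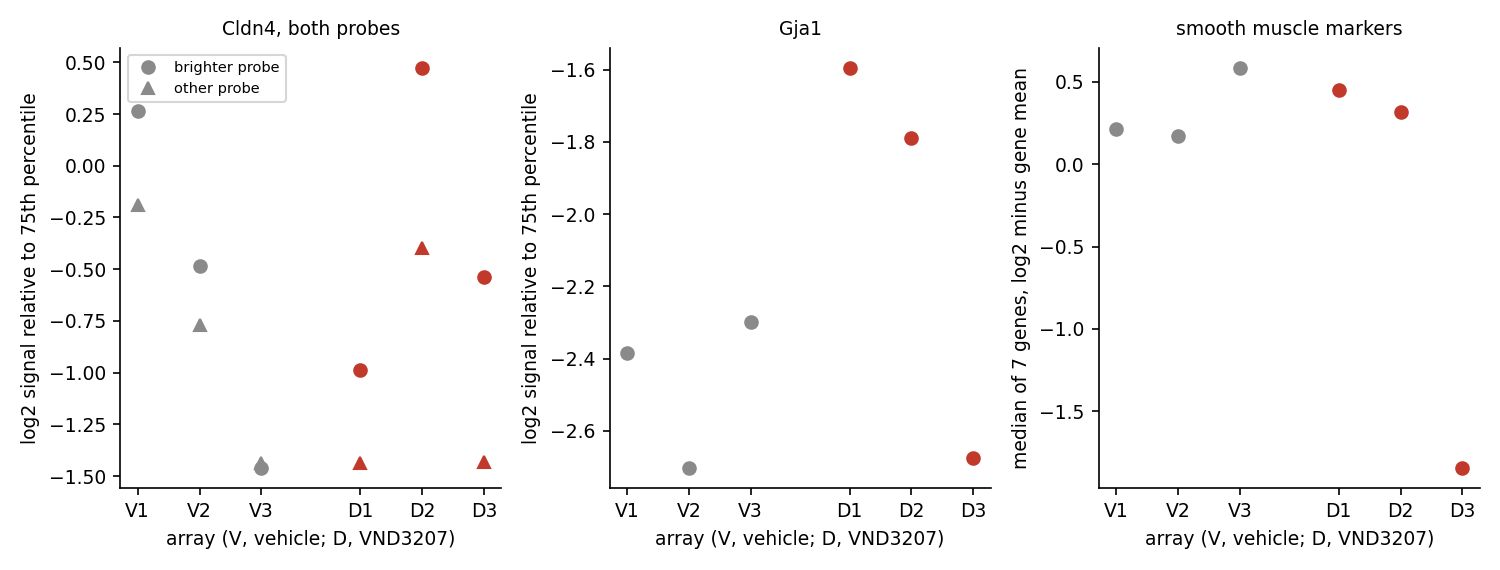
Log2 signals on each array of Cldn4 (circles for the brighter and triangles for the other probe) and Gja1, beside the median over 7 smooth muscle markers, each centred on its own mean. V1 to V3 are the vehicle and D1 to D3 the VND3207 mice. D3 is the lowest array for the smooth muscle markers. For Gja1 D3 is at -2.68 and V2, whose smooth muscle median is 0.17, at -2.70. The Cldn4 values of the groups overlap.

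The 2 beta connexins of the set, known from liver and gut epithelium, had smaller differences. Gjb2 read 1.21, 1.14 and 0.83 with vehicle and 1.24, 1.44 and 1.13 with VND3207. The groups overlapped through VND3207 replicate 3, and the difference was 0.21 (SE 0.15, limma adjusted p = 0.439). Gjb1 was at 0.02 (SE 0.13, limma adjusted p = 0.954).

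The tissue carried its epithelial markers, with 12 of 12 well above background on all arrays. Of these, 4 were called lower with VND3207 and 0 higher. All 12 were brighter than the 75th percentile of the arrays, and 5.23% of all probes that bright were called. The median difference was -0.15, which was 0.0093 with quantile normalization. With that normalization and after the trend correction 0 of the 12 were called, and without VND3207 replicate 3 it was 1. Vil1, the gene of the brush border protein villin, fell by 0.36 on the log2 scale (SE 0.09, limma adjusted p = 0.0488), and Fabp2, a fatty acid binding protein gene of enterocytes, by 0.58 (SE 0.12, adjusted p = 0.0233). With quantile normalization Vil1 was at -0.02 and Fabp2 at -0.13. Of the 12 markers 3 were above 0, Cdx1 at 0.01, Hnf4a at 0.01 and Elf3 at 0.09. The summed signal of the 12 markers was 2618 to 2946 with vehicle and 2126 to 2212 with VND3207. In whole tissue, fewer epithelial cells and less RNA per cell cannot be told apart, and the part of these markers in the junction gene values was not tested. Among the brightest probes on the arrays differences were lower in general, with a median of -0.19 for probes at a mean of 7.25, near that of Cldn7, and -0.41 at a mean of 8.25.

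**Figure D4:**
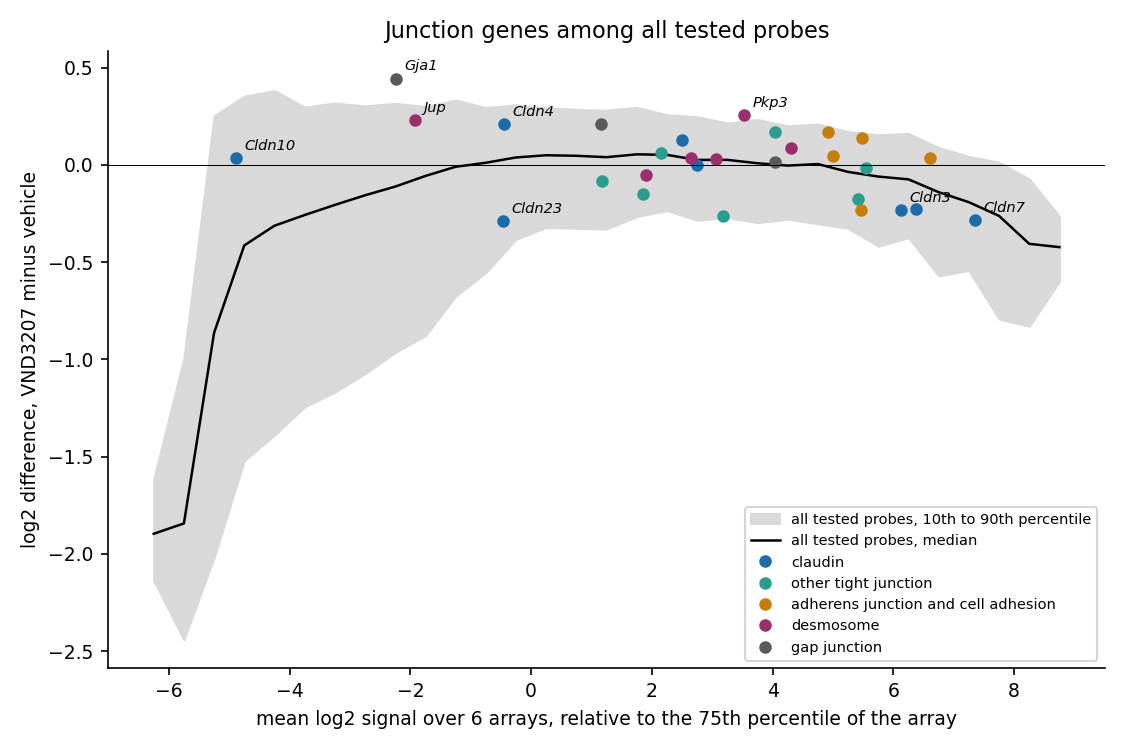
The log2 difference of the junction genes, as dots coloured by class, against the mean log2 signal over the 6 arrays, with the median (line) and the 10th to 90th percentile (grey band) of all tested probes. Both the dimmest and the brightest probes lie below 0, and of the junction genes Pkp3 and Gja1 lie above the band.

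Other markers were given the same way. Over all tested probes 15.5% were called, with 5.23% of those brighter than the 75th percentile and 21.4% of the others. Fibroblast markers had 0 of 6 called, a median difference of 0.08 and a summed signal of 49.6 to 77.6 with vehicle and 48.2 to 74.4 with VND3207. Endothelial markers had 2 of 7 lower, Pecam1 and Kdr, or 1 (Kdr) after the trend correction. Of these 7 markers 4 were above 0, with a median of 0.0018 and sums of 12.8 to 13.8 and 9.44 to 10.3. Leukocyte markers had 1 of 7 lower and 4 above 0, with a median of 0.04 and sums of 42.1 to 58.3 and 36.1 to 40.5. The largest part of each sum came from 1 marker called lower, Kdr or Itgam. Here and below the vehicle range comes first. Enteric neuron and glia markers had 1 of 6 lower, Sox10, with sums of 1.67 to 2.40 and 1.30 to 2.21. Acinar pancreas markers had 2 of 3 tested lower, Cpa1 and Cel, with a median of -0.998 and sums of 0.696 to 1.27 and 0.430 to 0.539. Of the 8 markers listed, only these 3 could be tested. Cpa1 was well above background on 3 vehicle and 0 VND3207 arrays, so it entered the test through the vehicle group alone. These leukocyte, glial and acinar calls were all lost both with quantile normalization (limma adjusted p from 0.0501 to 0.0981) and after the trend correction (adjusted p from 0.0694 to 0.505), and without VND3207 replicate 3 the leukocyte, the glial and 1 of the acinar calls were lost (adjusted p from 0.0554 to 0.107). Adipocyte, mesothelial and liver markers had 0 of 4 called each, with medians of 0.75, -0.14 and -0.20. Without VND3207 replicate 3 these medians were 1.36, 0.93 and 0.0121, and 1 liver marker, Apoa2, was called lower at -0.59 (limma adjusted p = 0.0348). Their sums were 19.9 to 31.7 and 25.9 to 36.4 for adipocytes, 1.17 to 2.57 and 0.448 to 3.37 for mesothelium and 9.71 to 10.2 and 8.49 to 9.41 for liver. Cidec made up the largest part of the adipocyte sum. The log2 signals of Adipoq ran from -4.75 to 2.67 and those of Plin1 from -5.36 to 0.25 over the 6 mice. The part of these markers in the junction gene values was not tested either.

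The wider junction machinery, in lists that do not share a gene with the 33, was read against 15.5% of all tested probes called, 5.23% of the bright ones and 21.4% of those at or below the 75th percentile of the arrays. Of 36 other tight junction genes tested, 0 were higher and 2 lower, with a median of -0.0082. Cldn14, a further claudin gene, read -1.37, -1.36 and -1.45 with vehicle and -2.60, -2.18 and -1.99 with VND3207, a fall of 0.86 on the log2 scale (SE 0.17, limma adjusted p = 0.0204). Magi2, which encodes a membrane scaffold protein, read -2.55, -2.78 and -3.03 with vehicle and -4.07, -3.55 and -3.66 with VND3207, and fell by 0.97 (SE 0.19, adjusted p = 0.0201). Both genes lay below that percentile in brightness, and 0 of the 18 members brighter than it were called.

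Among 20 other genes of the adherens junction and the cadherin family, 0 were higher and 1 lower, with a median of 0.03. This was Ctnnd2, the gene of delta-catenin, known from neurons, which read -3.16, -3.36 and -3.004 with vehicle and -3.81, -4.00 and -3.91 with VND3207 and fell by 0.73 (SE 0.13, limma adjusted p = 0.0130). Among 6 other desmosome genes 0 passed, with a range of -0.57 to 0.31. Of 9 other connexin and pannexin genes, 1 was lower and 0 higher, with a median of -0.25. Gja3, a connexin gene of the lens, read -3.30, -3.09 and -3.64 with vehicle and -4.72, -5.09 and -4.38 with VND3207 and fell by 1.39 (SE 0.23, limma adjusted p = 0.0107).

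Hemidesmosome and keratin genes had 2 of 9 members lower and 0 higher, with a median of -0.05. Krt8, a keratin of simple epithelia, read 8.59, 8.63 and 8.34 with vehicle and 8.03, 8.09 and 8.03 with VND3207, and fell by 0.47 (SE 0.11, limma adjusted p = 0.0406). Krt20, a keratin of mature gut epithelium, read 8.88, 8.98 and 8.73 and then 8.38, 8.42 and 8.48, and fell by 0.44 (SE 0.11, adjusted p = 0.0424). These 2 keratin genes also belong to the epithelial markers. With quantile normalization, where 11.4% of all probes were called, Krt8 was at -0.09 (limma adjusted p = 0.601) and Krt20 at 0.0015 (adjusted p = 0.994).

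Of 16 genes of junction contractility and turnover, 0 passed, with a range of -0.78 to 0.68. Of 16 regulators and markers of the epithelial and mesenchymal states, 1 was higher and 0 lower, with a median of 0.17. Twist2, a transcription factor gene of mesenchymal cells, read -4.51, -4.39 and -4.28 with vehicle and -3.52, -3.59 and -3.84 with VND3207, and rose by 0.75 (SE 0.13, limma adjusted p = 0.0127). Magi2 and Ctnnd2 did not pass with quantile normalization either (adjusted p = 0.0704 and 0.0838), and after the trend correction Twist2 alone of these 7 genes passed, at 1.096 (adjusted p = 0.0321). Without VND3207 replicate 3, Krt8 and Krt20 did not pass (adjusted p = 0.0931 and 0.0756). Nectin4, an adhesion receptor gene of the adherens junction list, was at 0.86 (limma adjusted p = 0.0765). It was called higher with quantile normalization at 1.34 (adjusted p = 0.0261) and after the trend correction at 1.39 (adjusted p = 0.0372). Nectin4 was well above background on only 1 vehicle and 2 VND3207 arrays, so its signals were near the floor and give no firm size. Adam17 and Grhl1 were called higher with quantile normalization (adjusted p = 0.0415 and 0.0343), and Src after the trend correction (adjusted p = 0.0435). Without VND3207 replicate 3, Cldn17 at -1.11 (limma adjusted p = 0.0341) and Gja10 at -1.17 (adjusted p = 0.0144) were called lower, which made 3 lower calls among the other tight junction genes and 2 among the connexins and pannexins. With that replicate they were at -0.86 and -0.86 (adjusted p = 0.101 and 0.113). Gja10 was well above background on 3 vehicle arrays and 1 VND3207 array. It entered the test mainly through the vehicle group, and its values give no firm size. The median of the other tight junction genes was 0.06 and that of the hemidesmosome and keratin genes 0.11 both with quantile normalization and after the trend correction. Without VND3207 replicate 3 these medians were 0.06 and 0.0025.

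**Figure D5:**
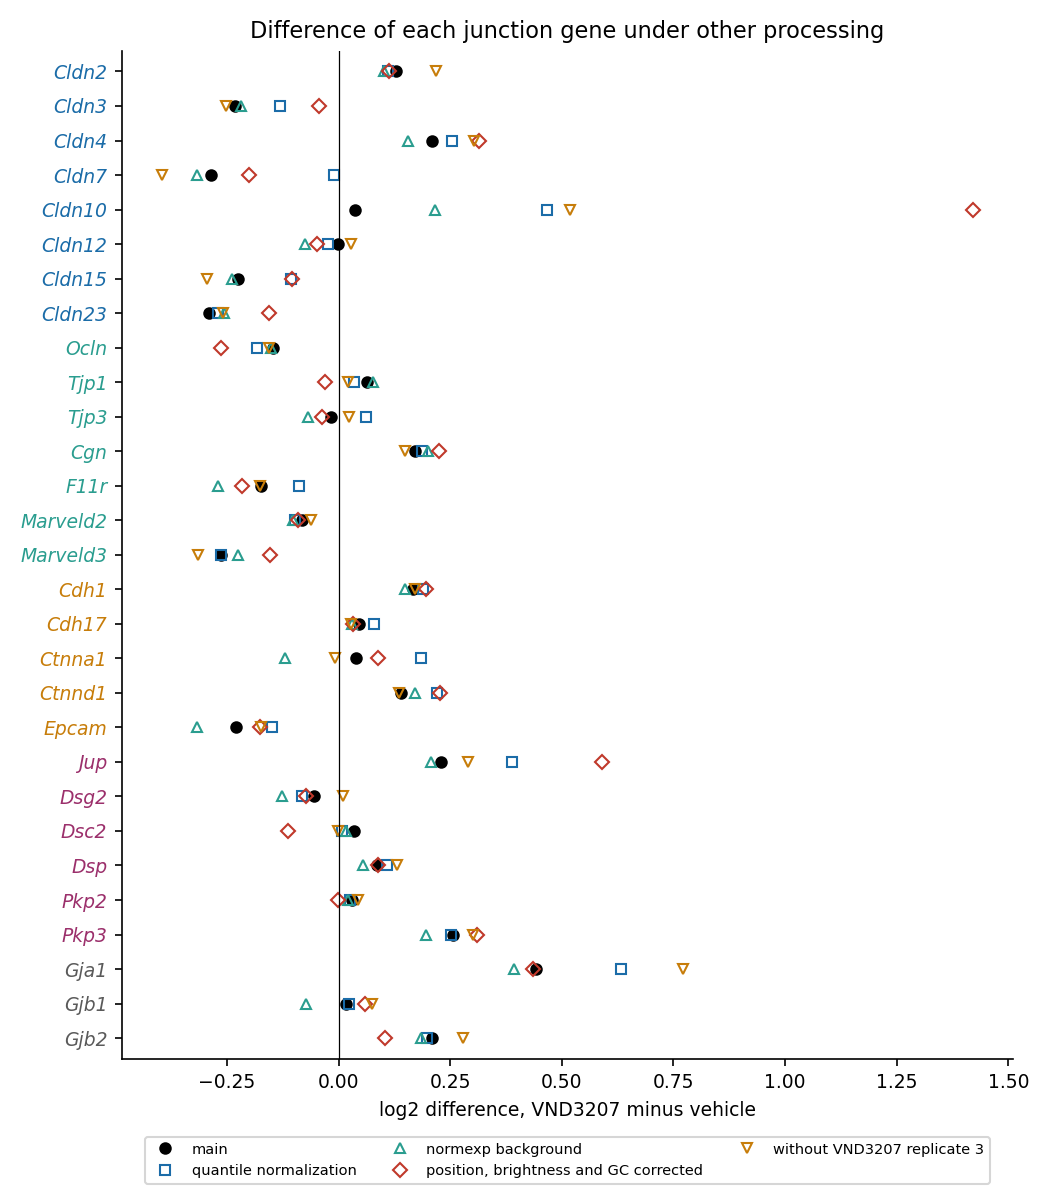
The log2 difference of each tested junction gene in the fit reported here (black) and under quantile normalization, normexp background correction, the trend correction, and without VND3207 replicate 3. Most genes move little, while Cldn10 reaches 1.42 and Jup 0.59 after the trend correction and Gja1 0.77 without that replicate.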

How the data were processed

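Per the submitters' processing notes, arrays were read with Agilent Feature Extraction 10.7.1.1. Processed signals were the deposited intensity values analysed here, detrended and background-subtracted per the file headers. The authors also deposited a table of log2 values, used as an alternative, whose columns share a median of 6.05. How it was made is not given in the sources used here.

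Control and outlier spots were left out, spots of a probe averaged and log2 taken, and each array's 75th percentile was subtracted. The tested set holds 36095 of 55681 non-control probes, those well above background on at least 3 of 6 arrays. Group was the only term of the 2-sided test with limma 3.58.1 (R 4.3.3), whose p-values were adjusted by Benjamini-Hochberg, with a threshold of 0.05. Errors are moderated standard errors unless called SD. Members were matched by the gene name in the files and are represented by their brightest tested probe. There were 40 probes, and 6 members had more than 1. The fit was tested on simulated data. No spot was saturated.

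The members, gene lists and tests were chosen with earlier results of these data known. All 33 members are named. Values on every array are given for those past the threshold or with groups apart and for the 2 of each class that differed most, and for Cldn4, Cldn10 and Cldn6 after their values were seen, as were the smooth muscle values beside Gja1. In other lists called members are named, and Nectin4, Adam17, Grhl1, Src, Cldn17, Gja10, Pdgfra and Apoa2 were chosen after their values were seen, as was testing the 4 dim claudins without a filter. The 1.14-fold of Cldn6 takes, on each VND3207 array, the higher of its own signal and the lowest signal called well above background. Alternatives covered normalization, background correction, filters, probe choice, variance models, a replicate block, the threshold, each array left out, and smooth trends (the trend correction, mgcv 1.9.3).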

Additional observations from a re-analysis of the deposited data

How the results depend on the processing

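Among the junction genes 0 passed under every setting run except 3. Without a filter on dim probes 2 were called (Cldn6 and Cldn18, otherwise not tested and not well above background in at least 1 group), after the trend correction 1 (Jup), and with each array left out in turn 0 to 1 (Gja1, without VND3207 replicate 3). With each array left out the median difference ran from -0.0506 to 0.0686. The probes called over the whole array numbered 3169 with normexp, 3204 when well above background on all 6 arrays, 2631 after the trend correction, 650 when only bright probes were tested (a setting added after seeing the data) and 3127 (without vehicle replicate 2) to 5357 with each array left out, against 5592. With the replicate number as a block 3553 were called, and 0 junction genes. Same-numbered mice deviated with correlations of 0.126, -0.11 and -0.051, against highest values of 0.12, 0.304 and 0.096 with other-numbered mice. Deviations from the mean of 3 arrays depend on each other, so these values do not decide whether the numbers pair the mice.

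The sign of small differences turned. With quantile normalization, the deposited table and array weights Tjp3 was at 0.0604, 0.0654 and 0.0356, and with array weights Cldn12 was at 0.0129. With normexp Ctnna1 was at -0.1194 and Gjb1 at -0.0737. With the mean of a gene's probes Cldn2 was at -0.0679, Cldn4 at -0.0406 and Dsg2 at 0.0855. After the trend correction Tjp1 was at -0.0295, Dsc2 at -0.1145 and Pkp2 at -0.0015. With each array left out in turn, the lowest and highest values were -0.3225 and 0.5173 for Cldn10, -0.0506 and 0.0299 for Cldn12, -0.234 and 0.0134 for Ocln, -0.1214 and 0.0501 for Tjp3, -0.1796 and 0.0047 for Marveld2, -0.2622 and 0.1444 for Dsg2, -0.089 and 0.0752 for Gjb1, -0.0379 and 0.2675 for Cldn2, -0.2413 and 0.6206 for Cldn4, -0.0216 and 0.1199 for Cdh17, -0.0196 and 0.0686 for Ctnna1, -0.0362 and 0.0966 for Dsc2, and -0.0279 and 0.0761 for Pkp2. The cause was not tested. In all, 506 of the values by gene and setting kept their sign and call, 37 turned and 2 gained a call. The slide could not be fitted as a block, since each slide holds 1 group.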
